A study of Citrullus lanatus with 36 samples.

Results

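Of 25121 named genes measured in melon flesh, 2 carried an annotation as a protein ORANGE, and their transcript levels are described here in 36 RNA libraries. They were found as the rows whose NR or Swiss-Prot description holds the words "protein ORANGE". MELO3C005449.2 matched the Swiss-Prot entry Protein ORANGE-GREEN of melon, and MELO3C024554.2 matched Protein ORANGE-LIKE of Arabidopsis. The organism label reads Citrullus lanatus, watermelon, whereas the gene IDs, the genome and the study are of melon. The libraries came from the flesh of 3 genotypes of the oriental melon cultivar 'Boyangjiuhao' (BY9H). The homozygous *Cmnor* mutant was made with CRISPR/Cas9 and is a single line with a deletion in the NAC domain of CmNOR, a transcription factor of fruit ripening. The heterozygous *CmNOR/Cmnor* fruits were the F1 of a cross between that line and its parent, and the WT fruits were the parent itself. Each genotype was sampled on the plant at 33, 36 and 39 DAP (days after pollination). A further sample came from fruits picked at 36 DAP and stored for 6 d. Each of the 12 groups has 3 libraries. The labels do not tie a library to a melon, so the p values measure the spread between these libraries, which may be technical. The sources used here give no gene ID for *CmNOR*, so the genotype labels were not checked on the edited gene.

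ORANGE is a plastid protein with a cysteine-rich zinc finger of the DnaJ type, the fold of a family of chaperones. It binds phytoene synthase, the enzyme that commits carbon to carotenoids, and keeps it folded and stable, so it acts on the enzyme after translation. It is also needed for chromoplasts, the plastids that store carotenoids in coloured flesh, and in melon an amino acid change in this protein separates orange flesh from green or white flesh. ORANGE-LIKE is its paralog, known from Arabidopsis, where it binds phytoene synthase as well. The Swiss-Prot name of the first gene refers to the allele of green-fleshed melons. The values used here are transcript levels and do not tell the alleles apart.

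MELO3C005449.2, called *ORANGE* below, lies on the plus strand of chromosome 9 from 21683406 to 21690712 in the Melon (DHL92) v3.6.1 genome. It is annotated in NR as an uncharacterized protein OR and carries the Pfam DnaJ central domain. MELO3C024554.2, called *ORANGE-LIKE* below, lies on the plus strand of chromosome 8 from 9365082 to 9370250, with an uncharacterized NR description and no Pfam domain listed. The spans cover 7307 and 5169 bases, introns included, and 0 other genes of the table overlap either of them. Neither gene is listed in a KEGG pathway. *PSY1* (MELO3C025102.2), which encodes phytoene synthase, lies on chromosome 9 as well, 7.13 Mb from *ORANGE*.

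Levels are given in FPKM, fragments scaled to the transcript's length in kilobases and to the size of the library, which corrects for transcript length, so that the 2 genes can be compared. The libraries held an estimated 17.8 to 36.9 M fragments. At that depth each kilobase of transcript stood for 1025 to 2353 fragments of *ORANGE* and 623 to 1788 fragments of *ORANGE-LIKE*. Libraries of a group correlated at r = 0.968 to 0.995 over the 15407 genes that averaged 1 FPKM or more. Marker lists were summed beside the flesh label. Genes of ripe flesh (ACC oxidases, phytoene synthases, polygalacturonases and expansins, 100 genes) summed to 1246 to 2135 FPKM in *Cmnor*, 9275 to 18668 FPKM in *CmNOR/Cmnor* libraries and 10081 to 16021 FPKM in WT libraries. The study describes the ripening of *Cmnor* fruits as impaired, so a list of ripe flesh cannot check the label of those libraries. Across the expressed genes the FPKM values of *Cmnor* were shifted upwards. The median log2 difference from WT was 0.52, 0.49, 0.31 and 0.45 at 33, 36 and 39 DAP and after storage, so the *Cmnor* differences of both *ORANGE* genes from WT and from *CmNOR/Cmnor* at each stage are also given after rescaling the libraries to a common level.

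*ORANGE* was the more abundant of the 2 genes in each of the 36 libraries. It ranged between 35.2 and 75.4 FPKM with a mean of 56.0 FPKM, higher than the mean of 91.6% of the 24901 genes tested. *ORANGE-LIKE* ranged between 21.5 and 55.3 FPKM with a mean of 39.5 FPKM, above 87.7% of them. Both were expressed in every group, including the pale *Cmnor* flesh. On the deposited scale the highest group mean was 1.92 times the lowest for *ORANGE* and 2.44 times for *ORANGE-LIKE*, against a median of 3.30 times over the 11257 genes that averaged 5 FPKM or more. The lowest means were those of *Cmnor* groups, whose differences widened under the rescaling given below. These ratios were not computed after rescaling. Both were also measured with little spread. The coefficient of variation within groups was 5.38% for *ORANGE* and 5.42% for *ORANGE-LIKE*, against a median of 10.2% over the same 11257 genes. Those genes were not matched to the level of the 2 members.

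**Figure D1:**
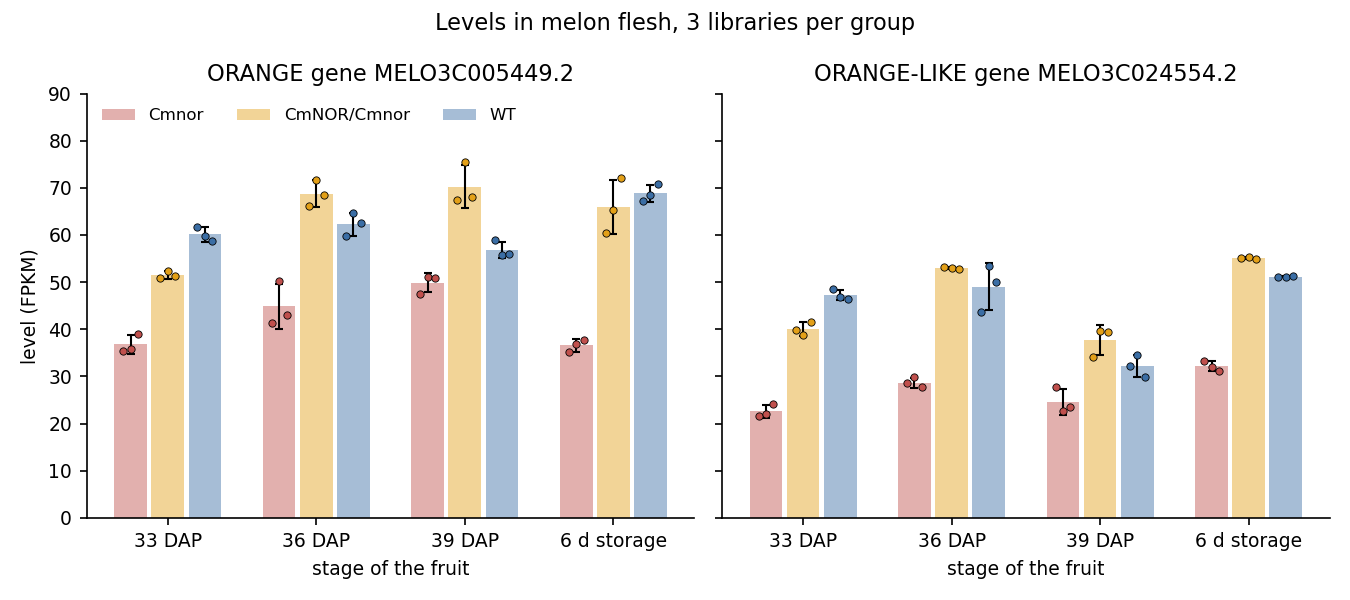
Levels of *ORANGE* (left) and *ORANGE-LIKE* (right) in FPKM on the y axis, by stage on the x axis, for *Cmnor*, *CmNOR/Cmnor* and WT flesh. Bars are means, error bars the SD, and points the 3 libraries of each group; the *Cmnor* libraries lie below those of the other genotypes at each stage for both genes, between 35.2 and 51.1 FPKM for *ORANGE* and between 21.5 and 33.4 FPKM for *ORANGE-LIKE*.

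The first comparison asked how flesh color genes differed between *Cmnor* and WT fruits. Both *ORANGE* genes were lower in *Cmnor* at all 4 stages. *ORANGE* stood at 0.61, 0.72, 0.88 and 0.53 of the WT level at 33, 36 and 39 DAP and in stored fruits, and *ORANGE-LIKE* at 0.48, 0.58, 0.76 and 0.63 of it. All 8 differences passed the test (limma, Benjamini-Hochberg adjusted p under 0.05 over all genes). In all 8 the libraries of the genotypes did not overlap, but how many of all genes did the same was not counted. Over all genes 15.5%, 16.5%, 22.9% and 17.4% were called lower in *Cmnor* at these stages. On the deposited scale *ORANGE-LIKE* at 33 DAP was the only 1 of the 8 that reached a log2 fold change of -1. In that direction 6.37% of all genes did so at that stage. Under each rescaling 6 of the 8 reached it, but how many of all genes did so was not counted. After rescaling 6321 to 7821 of the 24901 genes tested were called lower in *Cmnor* at the 4 stages.

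At 33 DAP *ORANGE* had 35.4, 35.8 and 39.1 FPKM in *Cmnor* libraries, against 61.8, 59.8 and 58.8 FPKM in WT libraries. The highest *Cmnor* library lay well under the lowest WT library, with a log2 fold change of -0.70 ± 0.06 (SE, limma adjusted p = 9.21e-11). At 36 DAP it had 41.4, 50.2 and 42.9 FPKM in *Cmnor*, against 59.7, 64.6 and 62.5 FPKM in WT. The second *Cmnor* library came closest to WT there, and the difference was -0.47 (adjusted p = 1.54e-07). At 39 DAP the gap was smallest, with 47.5, 51.1 and 50.9 FPKM in *Cmnor* against 58.9, 55.8 and 55.9 FPKM in WT. Its log2 fold change was -0.19 (adjusted p = 0.0106), and without the first *Cmnor* library of 39 DAP it was -0.15 and no longer passed (adjusted p = 0.0576). After storage it was widest, with 35.2, 36.9 and 37.7 FPKM in *Cmnor* against 67.2, 68.5 and 70.8 FPKM in WT. That is a log2 fold change of -0.89 (adjusted p = 4.3e-13).

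*ORANGE-LIKE* at 33 DAP had 21.5, 22.1 and 24.1 FPKM in *Cmnor* libraries, against 48.5, 46.9 and 46.5 FPKM in WT libraries. The WT level was 2.10 times that of *Cmnor* (log2 fold change -1.04 ± 0.07 SE, limma adjusted p = 1.53e-13). At 36 DAP it had 28.5, 29.8 and 27.7 FPKM in *Cmnor*, against 43.6, 53.4 and 50.03 FPKM in WT, where the first library was the lowest. The log2 fold change was -0.75 (adjusted p = 1.39e-10). At 39 DAP both genotypes were low for this gene, with 27.7, 22.6 and 23.5 FPKM in *Cmnor* against 32.2, 34.6 and 29.96 FPKM in WT, and the log2 fold change of -0.38 was the smallest of the 4 (adjusted p = 1.85e-05). After storage it had 33.4, 32.0 and 31.1 FPKM in *Cmnor* against 51.0, 51.1 and 51.3 FPKM in WT. The stored WT libraries were nearly equal, and the log2 fold change was -0.65 (adjusted p = 2.09e-09).

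Over the 4 stages together *ORANGE* was lower in *Cmnor* than in WT by a mean log2 difference of -0.56 and *ORANGE-LIKE* by -0.71 (24 libraries each, exact permutation test within stages, two-sided p = 1.25e-05 for both, the smallest p the design allows, lower in 4 of 4 stages). Rescaling the libraries to a common upper quartile, by TMM-type factors or to a common median kept all 8 decreases and made them larger. *ORANGE* then differed by -1.34 to -1.23 at 33 DAP, -1.10 to -1.001 at 36 DAP, -0.57 to -0.53 at 39 DAP and -1.54 to -1.43 after storage. *ORANGE-LIKE* differed by -1.67 to -1.56, -1.38 to -1.28, -0.76 to -0.71 and -1.30 to -1.19 at the same stages. The direction of both genes was therefore the same on each scale, while the size of the difference depended on the scale. The counts of genes called in each direction moved more: at 33 DAP 11968 genes were called higher and 3855 lower in *Cmnor* as deposited, against 7885 to 8560 higher and 6321 to 6906 lower after rescaling.

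**Figure D2:**
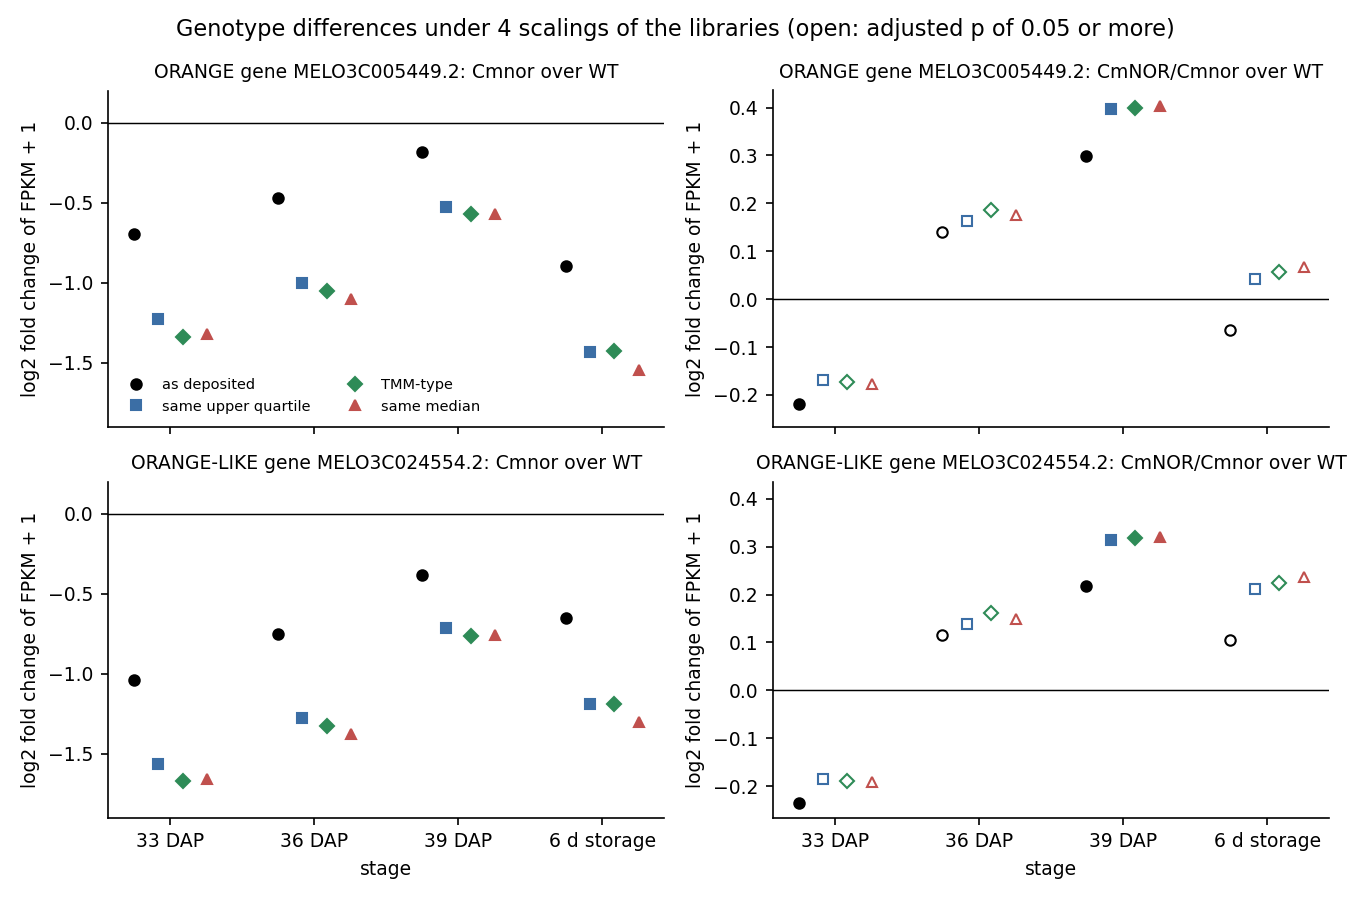
Log2 fold changes (y axis, of FPKM + 1) of *ORANGE* (top) and *ORANGE-LIKE* (bottom) by stage (x axis) for *Cmnor* over WT (left) and *CmNOR/Cmnor* over WT (right), with the libraries as deposited and under 3 rescalings; open symbols have an adjusted p of 0.05 or more. All *Cmnor* points lie under 0 and the rescaled ones lie lower than the deposited ones, whereas the *CmNOR/Cmnor* points lie between -0.23 and 0.40.

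Markers of other cell types also differed between the genotypes. Chlorophyll a/b-binding proteins of green tissue (20 genes) summed to 446 to 1208 FPKM in *Cmnor*, 11235 to 23824 FPKM in *CmNOR/Cmnor* libraries and 9813 to 22284 FPKM in WT libraries. Phloem proteins (33 genes) ran the other way, with 2844 to 11666 FPKM in *Cmnor*, 339 to 3382 FPKM in *CmNOR/Cmnor* and 295 to 699.7 FPKM in WT. The seed list (24 genes) summed to 155 to 303 FPKM over all libraries. The rind list (59 genes) summed to 546 to 735 FPKM in *Cmnor*, 452 to 588 FPKM in *CmNOR/Cmnor* and 410 to 737 FPKM in WT. On the deposited scale its *Cmnor* libraries lay above those of WT at 33, 36 and 39 DAP and overlapped them after storage. None of these marker sums was computed after rescaling, although the FPKM values of *Cmnor* were shifted upwards across the expressed genes. The direction of the rind list may therefore depend on the scale. No gene of these lists was at 0 in every library. Their part in the lower levels of the *ORANGE* genes was not tested. In bulk flesh, fewer cells of a type and less RNA per cell cannot be told apart.

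*Cmnor* was also compared with *CmNOR/Cmnor* fruits, which carry a working copy of *CmNOR*. Both genes were lower in *Cmnor* in all 8 comparisons, where 14%, 15.6%, 19.6% and 15% of all genes were called lower at the 4 stages. The libraries again did not overlap, which was not counted over all genes. *ORANGE* had 0.71, 0.65, 0.71 and 0.55 of the heterozygote level, with log2 fold changes of -0.48, -0.61, -0.49 and -0.83 (limma adjusted p between 2.03e-12 and 1.22e-07). *ORANGE-LIKE* had 0.56, 0.54, 0.65 and 0.58 of it, with log2 fold changes of -0.80, -0.86, -0.60 and -0.76 (adjusted p between 7.49e-12 and 1.14e-08). Rescaling kept all 8 calls and made the differences larger, to between -1.17 and -1.06, -1.28 and -1.17, -0.98 and -0.92, and -1.61 and -1.48 for *ORANGE* at the 4 stages. For *ORANGE-LIKE* they then lay between -1.48 and -1.38, -1.52 and -1.41, -1.08 and -1.03, and -1.54 and -1.40. After rescaling 6143 to 7751 of the 24901 genes tested were called lower in *Cmnor* than in *CmNOR/Cmnor* at the 4 stages. The widest gap of *ORANGE* was again that after storage on each scale. The mean log2 difference over the 4 stages was -0.60 and -0.76 (exact permutation test, 24 libraries each, p = 1.25e-05 for both).

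*CmNOR/Cmnor* fruits were then set against WT, to ask where a single working copy leaves the level. Both genes were lower than WT at 33 DAP and higher at 39 DAP, and did not pass the test at 36 DAP or after storage. Of the 8 comparisons 2 were thus called higher, 2 lower and 4 not. Over all genes 8.66%, 6.9%, 8.2% and 2.81% were called higher and 11.7%, 8.96%, 14.4% and 8.16% lower at the 4 stages.

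At 33 DAP *ORANGE* had 50.8, 52.4 and 51.3 FPKM in *CmNOR/Cmnor* libraries, against the 58.8 to 61.8 FPKM of WT (log2 fold change -0.22, limma adjusted p = 0.0112). *ORANGE-LIKE* had 39.9, 38.7 and 41.6 FPKM, against 46.5 to 48.5 FPKM in WT (log2 fold change -0.23, adjusted p = 0.0137). On the deposited FPKM scale the heterozygote stood 36.9% of the way from the WT mean towards the *Cmnor* mean for *ORANGE* and 29.2% of it for *ORANGE-LIKE*. This placement depends on the scale and was not computed after rescaling. Rescaling widened the *Cmnor* differences from WT at 33 DAP, to -1.34 to -1.23 and -1.67 to -1.56. The calls of *CmNOR/Cmnor* against WT at 33 DAP were lost under each of the 3 rescalings, where the differences were -0.18 to -0.17 and -0.19. That of *ORANGE-LIKE* was also lost without the second *CmNOR/Cmnor* or the first WT library of that stage, at -0.21.

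At 39 DAP *ORANGE* had 67.3, 75.4 and 68.0 FPKM in *CmNOR/Cmnor*, against 55.8 to 58.9 FPKM in WT, with all heterozygote libraries above all WT libraries. The ratio of means was 1.24 ± 0.09 (log2 fold change 0.30, limma adjusted p = 0.000569), and the call held under each rescaling. *ORANGE-LIKE* had 34.0, 39.7 and 39.4 FPKM, against 29.96 to 34.6 FPKM in WT. The first heterozygote library fell within the WT range, and the log2 fold change of 0.22 (adjusted p = 0.0201) was lost when *CmNOR/Cmnor* library 2 or 3 or WT library 1 or 3 of that stage was left out, where it ranged from 0.17 to 0.29 over all such omissions. In a fit of only the libraries compared it was 0.22 with an adjusted p of 0.171.

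At 36 DAP *ORANGE* had 66.0, 71.7 and 68.6 FPKM in *CmNOR/Cmnor*, against 59.7 to 64.6 FPKM in WT. The libraries did not overlap, but the log2 fold change of 0.14 (95% interval 0.01 to 0.27) missed the threshold after adjustment (limma adjusted p = 0.138). *ORANGE-LIKE* had 53.3, 52.9 and 52.8 FPKM, within the 43.6 to 53.4 FPKM of WT (log2 fold change 0.11, 95% interval -0.03 to 0.26). After storage *ORANGE* had 60.5, 65.3 and 72.0 FPKM in *CmNOR/Cmnor*, around the 67.2 to 70.8 FPKM of WT (log2 fold change -0.06, 95% interval -0.19 to 0.06, a value that turned to between 0.04 and 0.07 under rescaling). *ORANGE-LIKE* had 55.0, 55.3 and 54.9 FPKM after storage, just above the 51.0 to 51.3 FPKM of WT (log2 fold change 0.10, 95% interval -0.04 to 0.24). Over the 4 stages the mean log2 difference between *CmNOR/Cmnor* and WT was 0.04 for *ORANGE* (exact permutation test, 24 libraries, p = 0.45, higher in 2 stages) and 0.05 for *ORANGE-LIKE* (p = 0.31, higher in 3 stages).

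**Figure D3:**
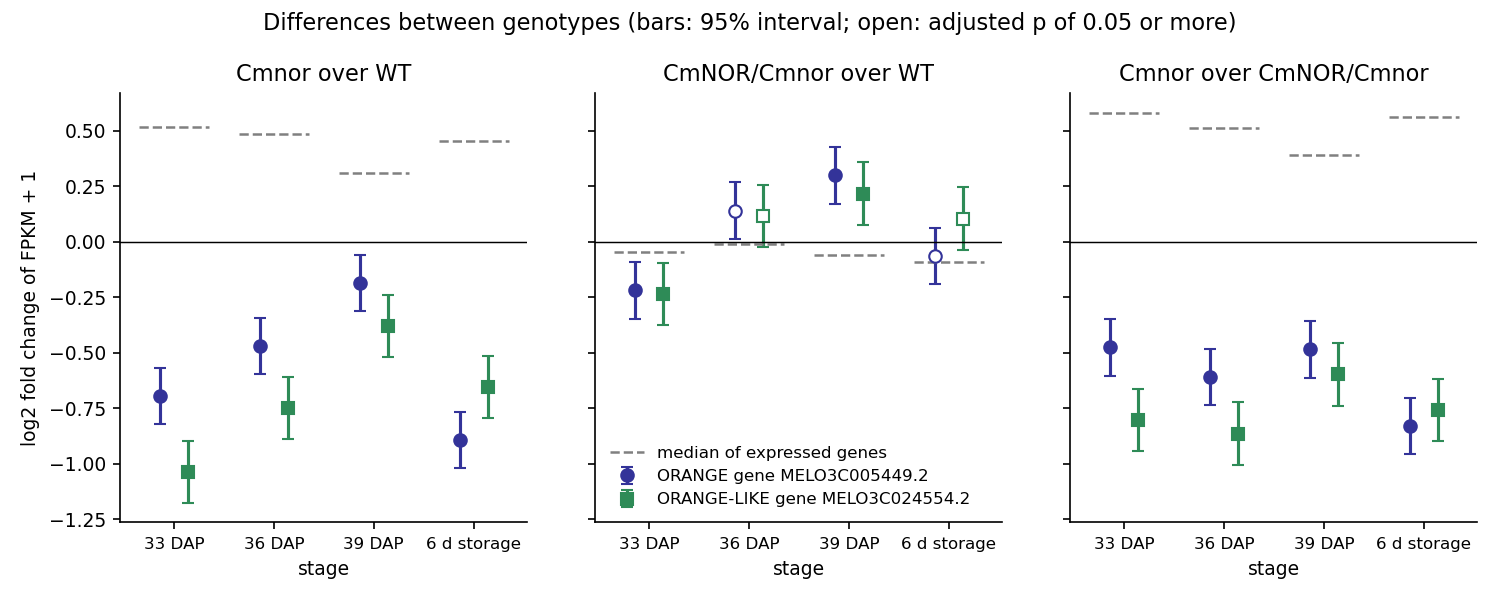
Log2 fold changes of FPKM + 1 (y axis) of both *ORANGE* genes by stage (x axis) for *Cmnor* over WT, *CmNOR/Cmnor* over WT and *Cmnor* over *CmNOR/Cmnor*. Bars are 95% intervals, open symbols have an adjusted p of 0.05 or more, and dashed lines mark the median of the 15407 expressed genes; the *Cmnor* values run between -1.04 and -0.19, while the dashed lines lie above 0 there.

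The genotype differences changed with the stage, as tested by interaction terms in the same model. The gap between *Cmnor* and WT was smaller at 39 DAP than at 33 DAP by 0.51 on the log2 scale for *ORANGE* (limma adjusted p = 2.57e-05) and by 0.66 for *ORANGE-LIKE* (adjusted p = 2.88e-06), where 16.1% of all genes were called in that direction. For *ORANGE* the gap was wider after storage than at 36 DAP by a log2 difference of -0.43 (adjusted p = 0.000218, with 23.3% of genes called in that direction). *ORANGE-LIKE* showed no such widening, at 0.10 (95% interval -0.10 to 0.29). The difference of *CmNOR/Cmnor* from WT moved upwards between 33 and 39 DAP for both genes, by 0.52 for *ORANGE* (adjusted p = 7.18e-05) and 0.45 for *ORANGE-LIKE* (adjusted p = 0.00103), where 8.76% of genes were called in that direction. Of the 16 interaction terms fitted for the 2 genes, 10 were called higher, 1 lower and 5 were not called (rescaling lost 3 to 6 of the calls). Over all genes the other terms with a call went that way in 18.3% (*Cmnor*, 33 to 36 DAP), 19.9% (*Cmnor*, 33 DAP to storage), 4.12% (*CmNOR/Cmnor*, 33 to 36 DAP) and 3.9% (*CmNOR/Cmnor*, 33 DAP to storage).

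Within a genotype, the *ORANGE* genes were followed through the stages. In *Cmnor* the mean of *ORANGE* was 36.8 ± 2.01, 44.8 ± 4.72 and 49.9 ± 2.01 FPKM at 33, 36 and 39 DAP (SD, n = 3 each). It rose between 33 and 39 DAP by 0.43 on the log2 scale (limma adjusted p = 2.33e-06), where 18.2% of genes rose. The step between 36 and 39 DAP alone was at the edge of the threshold (0.15, adjusted p = 0.0497, 16.4% of genes rose) and was lost in several alternatives. In *CmNOR/Cmnor* it was 51.5 ± 0.80, 68.8 ± 2.85 and 70.3 ± 4.50 FPKM and rose by 0.44 (adjusted p = 1.45e-06, 23.6% of genes), nearly all of it between 33 and 36 DAP. In WT, where it was 60.1 ± 1.53, 62.3 ± 2.43 and 56.8 ± 1.76 FPKM, no step passed the test as deposited. Its log2 change between 33 and 39 DAP in WT was -0.08 (95% interval -0.21 to 0.05), and this became a called decrease of -0.26 to -0.22 under rescaling.

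*ORANGE-LIKE* took another course. Its mean was 22.6 ± 1.33, 28.7 ± 1.06 and 24.6 ± 2.70 FPKM in *Cmnor* at the 3 stages, 40.1 ± 1.44, 53.0 ± 0.25 and 37.7 ± 3.19 FPKM in *CmNOR/Cmnor* fruits, and 47.3 ± 1.07, 49.0 ± 4.95 and 32.3 ± 2.34 FPKM in WT. It fell between 36 and 39 DAP in all 3 genotypes. The log2 change of that step was -0.22 in *Cmnor* (limma adjusted p = 0.0117), -0.48 in *CmNOR/Cmnor* (adjusted p = 6.49e-06) and -0.59 in WT (adjusted p = 1.87e-07), where 23.5%, 9.42% and 10.9% of genes fell. In WT it was also lower at 39 DAP than at 33 DAP, by -0.54 (adjusted p = 3.06e-07, 12.9% of genes fell). The *Cmnor* call was lost under each rescaling, at -0.15 to -0.09, and without the second *Cmnor* library of 36 DAP or library 2 or 3 of 39 DAP. Before that step it rose between 33 and 36 DAP in *Cmnor* (0.33, adjusted p = 0.000208) and *CmNOR/Cmnor* (0.39, adjusted p = 4.24e-05), where 21.6% and 17.9% of genes rose. In WT the change of that step was 0.05 (95% interval -0.09 to 0.19).

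Storage was compared with the flesh at 36 DAP, the day the stored fruits were picked. *ORANGE* fell in stored *Cmnor* fruits, to 36.6 ± 1.31 FPKM against 44.8 ± 4.72 FPKM at 36 DAP (SD, n = 3 each, log2 fold change -0.28, limma adjusted p = 0.000385, 23% of genes fell). This was the only 1 of the 6 storage comparisons of the 2 genes that passed. In *CmNOR/Cmnor* it had 65.9 ± 5.78 FPKM after storage against 68.8 ± 2.85 FPKM at 36 DAP, and in WT 68.8 ± 1.79 against 62.3 ± 2.43 FPKM (log2 fold change 0.14, adjusted p = 0.0725). *ORANGE-LIKE* had log2 fold changes of 0.16 in *Cmnor* (adjusted p = 0.0537), 0.05 in *CmNOR/Cmnor* and 0.07 in WT. Stored fruits and fruits left on the plant to 39 DAP stood apart for this gene, with 51.0 to 51.3 FPKM after storage and 29.96 to 34.6 FPKM at 39 DAP in WT, a pair whose difference was not tested.

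Ordered by the mean, *ORANGE* was highest in *CmNOR/Cmnor* at 39 DAP, followed by stored WT, *CmNOR/Cmnor* at 36 DAP, stored *CmNOR/Cmnor* and WT at 36, 33 and 39 DAP. The libraries of neighbours in this part of the order overlapped. *CmNOR/Cmnor* at 33 DAP came next, with no overlap with WT at 39 DAP, and the 4 *Cmnor* groups took the last places. *ORANGE-LIKE* was highest in stored *CmNOR/Cmnor*, *CmNOR/Cmnor* at 36 DAP and stored WT, 3 groups whose libraries did not overlap although their means lay between 51.1 and 55.1 FPKM. Its order ended with *Cmnor* at 36, 39 and 33 DAP, of which the 39 and 33 DAP libraries overlapped, and stored *Cmnor* overlapped WT at 39 DAP.

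Of the summed level of the paralogs, *ORANGE* took the larger part in every library. It made up 51.3% to 69.4% of the summed level of both genes, with a median of 57.5%. Its share was 62.0%, 60.9%, 67.0% and 53.2% in *Cmnor*, 56.2%, 56.5%, 65.1% and 54.4% in *CmNOR/Cmnor* fruits and 56.0%, 56.0%, 63.8% and 57.4% in WT at 33, 36 and 39 DAP and after storage. In each genotype it was highest at 39 DAP, the stage at which *ORANGE-LIKE* was lower than at 36 DAP. The *Cmnor* libraries had a higher share than the WT libraries at 33 and 36 DAP and a lower one after storage, with no overlap, but overlapped WT at 39 DAP. The summed level was 59.3, 73.5, 74.5 and 68.8 FPKM in *Cmnor*, 91.6, 122, 108 and 121 FPKM in *CmNOR/Cmnor* fruits and 107, 111, 89.1 and 119.98 FPKM in WT.

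**Figure D4:**
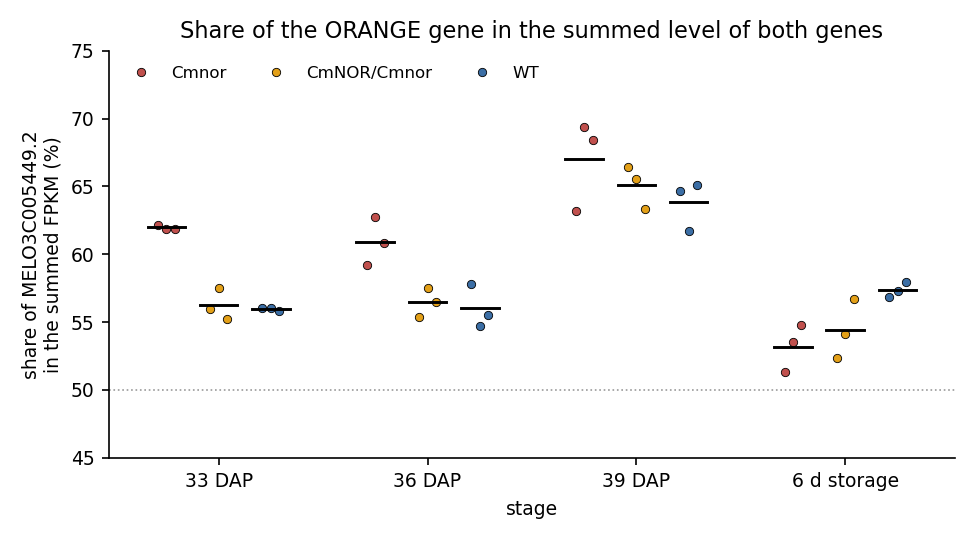
Share of *ORANGE* in the summed FPKM of *ORANGE* and *ORANGE-LIKE* (y axis, percent) by stage (x axis), with a point for each library, a bar for each group mean and a dotted line at equal levels. All points lie above the dotted line, between 51.3% and 69.4%, and the groups of 39 DAP lie highest.

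The *ORANGE* genes were set beside the 7 carotenoid genes that the study examined in these samples, which is therefore no independent choice. In *Cmnor* against WT 7, 6, 6 and 7 of these were lower at 33, 36 and 39 DAP and after storage. In each of the 4 comparisons 6 of the 7 had a lower log2 fold change than both *ORANGE* genes. *PSY1* (MELO3C025102.2) averaged 54.8, 44.99, 37.7 and 17.8 FPKM in *Cmnor* and 175, 193, 158 and 197 FPKM in WT at the 4 stages, with log2 fold changes between -3.40 and -1.66. *PSY2* (MELO3C014677.2), a further phytoene synthase, was lower by log2 fold changes between -5.01 and -4.12. Of the 3 genes matched by the name phytoene synthase, 2 were lower and 1 higher in *Cmnor* at each stage as deposited. Over all genes 15.5% to 22.9% were called lower and 39.6% to 48.1% higher. Only 2 of the 3 averaged 5 FPKM or more. *ZISO* (MELO3C017709.2), an isomerase of an intermediate, was lower by -2.68 to -2.17. The phytoene and zeta-carotene desaturase genes *PDS* (MELO3C017772.2) and *ZDS* (MELO3C024674.2) were also lower at all 4 stages.

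The exception among the 7 genes was *LCYB* (MELO3C020744.2), the lycopene beta-cyclase gene. It was lower in *Cmnor* at 33 DAP (-0.59) and after storage (-0.39), had 0.14 at 36 DAP, a value that became a called decrease of -0.47 to -0.38 under rescaling, and was higher at 39 DAP by 0.49, which was lost under rescaling at 0.11 to 0.16. Its epsilon-cyclase counterpart *LCYE* (MELO3C004633.2) was lower at each stage. In *CmNOR/Cmnor* against WT at 33 DAP 6 of the 7 genes were lower, beside 11.7% of all genes. After rescaling 3 of the 7 were lower, beside 2426 to 2447 of the 24901 genes tested. *PSY1* was lower at 33 DAP (-0.34), a call lost under each rescaling at -0.30 to -0.29, and higher at 36 DAP (0.58) and 39 DAP (0.41), while *PSY2* was lower at 33 DAP (-1.51), at 39 DAP (-1.24) and after storage (-0.98).

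**Figure D5:**
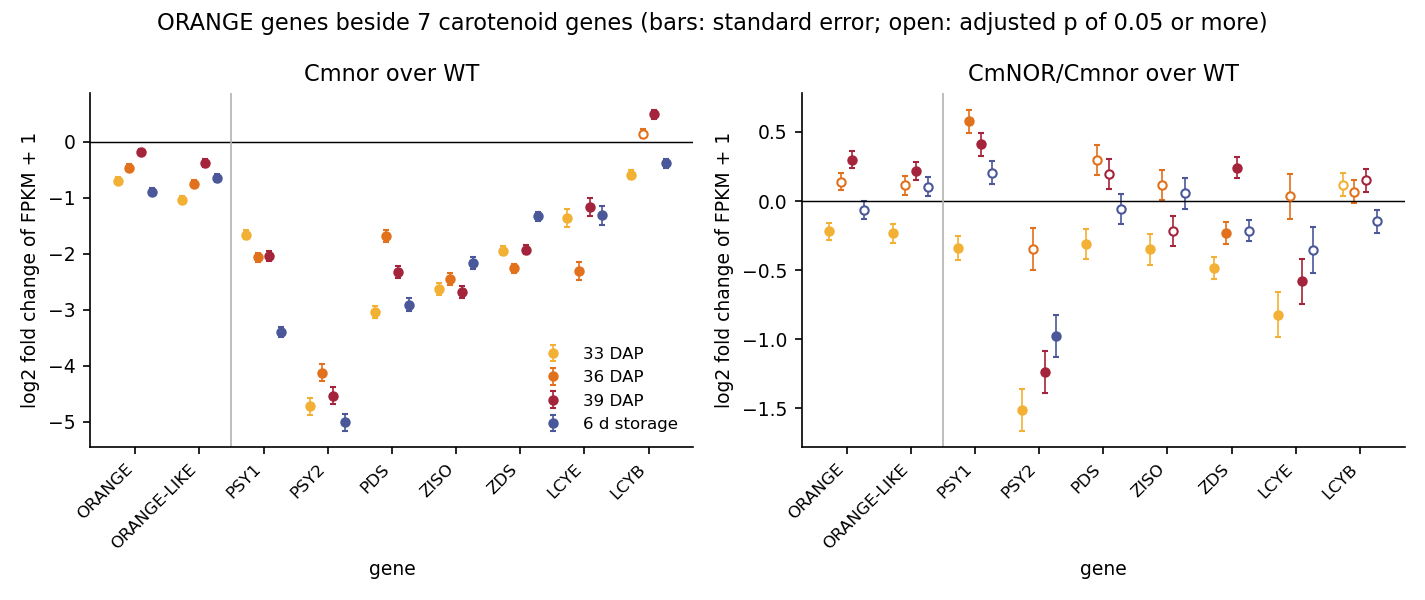
Log2 fold changes of FPKM + 1 (y axis) of the 2 *ORANGE* genes and 7 carotenoid genes (x axis) for *Cmnor* over WT (left) and *CmNOR/Cmnor* over WT (right), with a point for each stage, bars for the standard error and open points for an adjusted p of 0.05 or more. The y axes of the panels differ; in *Cmnor* the carotenoid genes reach -5.01 while the *ORANGE* genes stay between -1.04 and -0.19.

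Across the 12 group means of log2(FPKM + 1), *ORANGE* and *ORANGE-LIKE* correlated at r = 0.79. Among the 9054 genes defined below, 92.1% had a lower correlation with *ORANGE* and 93.6% a lower one with *ORANGE-LIKE*. *ORANGE* was closest to *PSY1* (r = 0.90), *PDS* (0.89), *PSY2* (0.86) and *ZISO* (0.84) among the carotenoid genes, and *ORANGE-LIKE* to *ZISO* (0.91), *ZDS* (0.86), *PDS* (0.85) and *PSY2* (0.83). These values lay above those of 95.5% to 99.1% of the 9054 genes for *ORANGE* and 96.1% to 99.7% for *ORANGE-LIKE*. Of the carotenoid genes both were least like *LCYB*, at 0.19 and 0.33, still above 73.6% and 76.8% of the 9054 genes. These values describe 12 points that share libraries between genes. The 4 *Cmnor* groups had the lowest FPKM means of each of these genes except *LCYB*. For *ORANGE* and *ORANGE-LIKE* some of their libraries overlapped those of another group.

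Of 9054 genes that averaged 5 FPKM or more and whose group means had an SD of 0.3 or more, the 5 most like *ORANGE* were MELO3C018163.2 (*MORF9*, a factor of RNA editing in organelles, r = 0.956), MELO3C015761.2 (an OSB2-like organellar single-stranded DNA-binding protein, 0.955), the uncharacterized MELO3C025487.2 (0.954), MELO3C015535.2 (COQ9-B of ubiquinone synthesis, 0.946) and MELO3C020844.2 (a GTP-binding protein, 0.946). *MORF9* averaged 15.5, 19.2, 21.7 and 12.3 FPKM in *Cmnor* and 39.4, 44.6, 33.5 and 35.7 FPKM in WT at the 4 stages. The 5 most like *ORANGE-LIKE* were MELO3C006835.2 (*CLPT1*, a subunit of the plastid Clp protease, 0.945), MELO3C020432.2 (adenosylhomocysteinase 1, 0.945), MELO3C018713.2 (the thylakoid protease FTSH 2, 0.938), MELO3C002746.2 (a plastid pyruvate dehydrogenase subunit, 0.937) and MELO3C007995.2 (an RGLG2-like ubiquitin ligase, 0.935). *CLPT1* averaged 29.8, 30.1, 30.2 and 34.6 FPKM in *Cmnor* and 58.2, 56.5, 42.6 and 63.7 FPKM in WT. The lists have no gene in common.

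Genes around the *ORANGE* proteins were read from lists of annotated names, in *Cmnor* against WT and with no test of the lists. Over all genes 48.1%, 46.3%, 39.6% and 44.5% were called higher in that comparison at the 4 stages, and 15.5%, 16.5%, 22.9% and 17.4% lower. After rescaling 7121 to 8560 of the 24901 genes tested were higher at these stages and 6321 to 7821 lower. Genes that supply the precursor come first. Of 22 genes of the plastid MEP pathway and of prenyl diphosphate synthesis, 13, 10, 10 and 10 were lower and 3, 6, 5 and 2 higher at the 4 stages, and at 36 DAP the median log2 fold change was -0.23 beside 0.17 over all genes. After rescaling 11 to 12 were lower and 3 higher at 36 DAP, with a median of -0.74 to -0.66. The lowest at 36 DAP was MELO3C005061.2, the hydroxymethylbutenyl diphosphate synthase of the MEP pathway, with 54.6 FPKM in *Cmnor*, 372 FPKM in *CmNOR/Cmnor* and 384 FPKM in WT (log2 fold change -2.78, limma adjusted p = 2.84e-19). MELO3C013320.2, the small subunit of geranylgeranyl diphosphate synthase, had 45.4, 170.2 and 165 FPKM in the same order of genotypes (-1.84). MELO3C010053.2, an isopentenyl diphosphate isomerase, was higher in *Cmnor*, at 18.3 FPKM against 4.72 FPKM in WT (1.78, and 1.19 to 1.28 after rescaling).

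Among 79 genes of the KEGG carotenoid pathway, which also holds steps of abscisic acid synthesis, 23, 26, 33 and 23 were lower and 33, 34, 26 and 38 higher at the 4 stages. The short-chain dehydrogenase genes MELO3C023623.2 and MELO3C023622.2 were lowest at 36 DAP, at 0.94 FPKM in *Cmnor* against 111 FPKM in WT and at 0.39 against 56.1 FPKM. MELO3C005129.2, annotated as xanthoxin dehydrogenase, was higher, at 47.5 FPKM in *Cmnor* against 2.73 FPKM in WT (log2 fold change 3.70). Of 10 genes matched by names of carotenoid cleavage enzymes, 5 were lower at each stage. MELO3C016224.2, the cleavage dioxygenase *CCD4*, had 6.9995 FPKM in *Cmnor*, 229.97 FPKM in *CmNOR/Cmnor* and 196 FPKM in WT at 36 DAP (-4.63), and MELO3C023086.2, *NCED6* of abscisic acid synthesis, had 27.9, 8.31 and 2.04 FPKM (3.26). *NCED6* was also higher in *CmNOR/Cmnor* than in WT (1.63, limma adjusted p = 2.8e-07).

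In Arabidopsis the plastid Clp protease degrades phytoene synthase, the enzyme that ORANGE stabilizes. Of 31 genes matched by names of Clp proteases and chaperones, with no filter for the plastid, 21, 17, 17 and 15 were lower in *Cmnor* against WT. At each stage 3 were higher. Their median log2 fold change was -0.60, -0.44, -0.25 and -0.46, beside 0.21, 0.17, 0.06 and 0.14 over all genes, and 19 to 21 were lower under rescaling. MELO3C014926.2, the disaggregase *ClpB3*, had 12.2 FPKM in *Cmnor*, 47.5 FPKM in *CmNOR/Cmnor* and 73.5 FPKM in WT at 36 DAP (-2.50). MELO3C020666.2, an unfolding subunit of ClpA type, had 31.1, 109.7 and 122 FPKM (-1.94). In *CmNOR/Cmnor* against WT 13 of the 31 were lower and 0 higher at 33 DAP, where 11.7% of all genes were lower and 8.66% higher. After rescaling 10 of the 31 were lower there, beside 2426 to 2447 of the 24901 genes tested. At 39 DAP 3 of the 31 were lower and 6 higher as deposited, where 14.4% of all genes were lower and 8.2% higher.

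Among 3 further proteins with a DnaJ-type zinc finger, MELO3C014661.2, of the PSA2 type, had 16.3 FPKM in *Cmnor* against 44.2 FPKM in WT at 36 DAP (-1.38), and MELO3C004506.2, *BSD2* of Rubisco assembly, 7.92 against 17.8 FPKM (-1.04). The DnaJ-like MELO3C030460.2 was higher, at 10.9 against 7.37 FPKM (0.55), a call lost under rescaling at -0.03 to 0.07. At 39 DAP all 3 were higher in *Cmnor*, and 2 after rescaling. Of 10 plastoglobule and chromoplast proteins 5, 4, 4 and 5 were lower and 4, 6, 4 and 4 higher. The plastid-lipid-associated MELO3C014648.2 was lower at 36 DAP (5.33 FPKM in *Cmnor* against 26.6 FPKM in WT, -2.12), as was MELO3C011201.2 (-1.82), whereas MELO3C010097.2 and MELO3C026712.2 were higher by 0.91 each, and by 0.28 to 0.40 after rescaling.

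In Arabidopsis ORANGE also meets proteins of chlorophyll synthesis and of plastid division. A further list matched names of TCP14, early light-induced proteins, GUN4, ChlI, GLK factors and a peptide chain release factor. Binding to ORANGE was not a condition of the match. Of its 8 genes 4, 3, 5 and 3 were lower and 2, 4, 2 and 2 higher at the 4 stages. At 36 DAP MELO3C011657.2, a tetrapyrrole-binding protein of the GUN4 type, had 9.03 FPKM in *Cmnor*, 198 FPKM in *CmNOR/Cmnor* and 138 FPKM in WT (-3.78), and MELO3C007233.2, the magnesium chelatase subunit ChlI, had 23.3, 204 and 182 FPKM (-2.91). The early light-induced protein gene MELO3C006499.2 had 108, 28.4 and 56.9 FPKM (0.92) and the GLK1-like factor MELO3C025295.2 had 13.0, 6.18 and 8.25 FPKM (0.58), both with calls lost under rescaling. Of 25 plastid division genes 7, 9, 9 and 10 were lower and 11, 8, 11 and 10 higher at the 4 stages. MELO3C017048.2 (*MCD1*, 2.04) and MELO3C021952.2 (*PDV2*, 1.87) were higher at 36 DAP, and MELO3C010989.2 (*ARC6*, -1.75) and MELO3C024544.2 (*FtsZ2-2*, -1.06) lower. At 36 DAP the median log2 fold change was 0.08 for the KEGG carotenoid list, -0.42 for cleavage, -1.04 for the zinc finger proteins, 0.39 for plastoglobules, 0.21 for the list of 8 names and 0.01 for plastid division, beside 0.17 over all genes. These counts depended on the scale: at 36 DAP after rescaling 25 to 27 genes of the KEGG list were higher and 32 lower, while plastoglobules had 3 higher and 5 lower, the list of 8 names 1 higher and 3 to 4 lower, and plastid division 6 higher and 14 to 15 lower. Of all 24901 genes tested 7730 to 8257 were then higher and 6592 to 7133 lower.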

How the data were processed

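The table gives FPKM, fragments scaled to transcript length and library size, for 36 flesh libraries as deposited by the authors. They used the DHL92 melon genome, version v3.6.1, and HISAT2 for the alignment. Gene starts and ends are those of the deposited table. The submitters' processing notes name HISAT2, TopHat2, StringTie and Cufflinks, with no version. The read filter, counting tool and strand setting were not given in the sources used here. All value columns were mapped to a sample by their titles. Of 25122 lines 1 was emptied for this work, 25121 carry a name, 220 were at 0 throughout and 24901 were tested. Depth was estimated from the steps between low FPKM values, since no counts were used, and covers counting error only.

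Differences were tested on log2(FPKM + 1) with limma 3.58.1 in R 4.3.3, with a variance trend and a model of 12 group means without covariates. Fold changes are on that scale and understate low genes. Genes are called at a Benjamini-Hochberg adjusted p under 0.05 over all tested genes, and as DEGs at a log2 fold change of at least 1 as well. A stratified exact permutation test (Python 3.11.15, numpy 2.4.6, pandas 2.3.3) covers the 4 stages together. Figures used matplotlib 3.10.9. The fit was tested on simulated data. Alternatives were a pseudocount of 0.1, a filter of 1 FPKM in 3 libraries, upper-quartile, TMM-type and median scaling, no trend, only the libraries compared, the replicate number as a block, and omission of each library. The members and the gene lists were chosen with earlier results of these data known. Named beside the members are the 7 carotenoid genes of the study, from each list up to 2 genes with the highest and 2 with the lowest log2 fold change in *Cmnor* against WT at 36 DAP among called genes averaging 5 FPKM or more, and the 5 genes most correlated with each member. A few of these are left out of the text for brevity. MELO3C005787.2, drawn by the cleavage list, carries no cleavage enzyme name in NR and is only counted.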

Additional observations from a re-analysis of the deposited data

Results flagged for a closer look

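A difference between genotypes that itself differed between stages was found for 11 of the 16 interaction terms of the 2 genes (limma adjusted p under 0.05). Rescaling lost 5 (upper quartile), 3 (TMM-type) or 6 (median) of these calls, among them all 4 terms between 33 and 36 DAP under upper-quartile and median scaling and 2 of these 4 under TMM-type scaling. For *ORANGE* (MELO3C005449.2) the *Cmnor* to WT difference moved upwards between 33 and 36 DAP by 0.23 on the log2 scale (adjusted p = 0.0422) and between 33 and 39 DAP by 0.51 (adjusted p = 2.57e-05), and downwards between 36 DAP and storage by -0.43 (adjusted p = 0.000218). The *CmNOR/Cmnor* to WT difference of *ORANGE* moved by 0.36 between 33 and 36 DAP (adjusted p = 0.00874) and by 0.52 between 33 and 39 DAP (adjusted p = 7.18e-05).

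For *ORANGE-LIKE* (MELO3C024554.2) the *Cmnor* to WT difference moved by 0.29 between 33 and 36 DAP (adjusted p = 0.0188), 0.66 between 33 and 39 DAP (adjusted p = 2.88e-06) and 0.38 between 33 DAP and storage (adjusted p = 0.00199). The *CmNOR/Cmnor* to WT difference of *ORANGE-LIKE* moved by 0.35, 0.45 and 0.34 over the same spans (adjusted p = 0.0218, 0.00103 and 0.0218). Over all genes 18.3% of the *Cmnor* terms and 4.12% of the *CmNOR/Cmnor* terms between 33 and 36 DAP were called in the upward direction. The *Cmnor* and *CmNOR/Cmnor* terms share the WT libraries. Groups of 3 libraries were not searched for single outlying values.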

How the results depend on the processing

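Of all alternative values of the members, 1109 kept their direction and side of the threshold, 57 lost a call, 13 gained one and 17 changed sign. The 1109 include 36 shares with a library left out, which had no call to lose. For the shares the rule was a move of the group mean by less than 1 SD. Leaving out 1 of 3 libraries cannot exceed that, so it says nothing on how stable the shares are. The genotype differences over the 4 stages kept their direction and call under the alternatives run for them, but rescaling enlarged the *Cmnor* differences over the stages, down to -1.14 (*ORANGE*, MELO3C005449.2) and -1.27 (*ORANGE-LIKE*, MELO3C024554.2) from WT and -1.25 and -1.40 from *CmNOR/Cmnor*. No call changed under no variance trend or under the filter of 1 FPKM in 3 libraries. FPKM values carry no counts, so a count model was not run. The cause of the changes below was not tested.

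Under upper-quartile, TMM-type and median scaling, *ORANGE* (MELO3C005449.2) lost the call of *CmNOR/Cmnor* against WT at 33 DAP (-0.17, -0.17, -0.18). Its stored *CmNOR/Cmnor* against WT value turned to 0.042, 0.056 and 0.068, and 39 against 36 DAP in *CmNOR/Cmnor* to -0.0042, -0.044 and -0.018. Storage against 36 DAP in *CmNOR/Cmnor* turned to 0.057 (upper quartile) and 0.080 (median), and 36 against 33 DAP in WT to -0.0047 (TMM-type). The WT decreases became calls at 39 against 36 DAP (-0.24, -0.26, -0.25) and 39 against 33 DAP (-0.22, -0.26, -0.23). The interaction between 33 and 36 DAP was lost in *Cmnor* at 0.23 and 0.22 and in *CmNOR/Cmnor* at 0.33 and 0.35 (upper quartile and median).

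*ORANGE-LIKE* (MELO3C024554.2) lost *CmNOR/Cmnor* against WT at 33 DAP (-0.19, -0.19, -0.19), 39 against 36 DAP in *Cmnor* (-0.13, -0.15, -0.087), and the interactions between 33 and 36 DAP of *Cmnor* (0.29, 0.35, 0.28) and *CmNOR/Cmnor* (0.32, 0.35, 0.34) and between 33 DAP and storage of *CmNOR/Cmnor* (0.40, 0.41, 0.43) and, under median scaling, *Cmnor* (0.36). The term of *CmNOR/Cmnor* between 36 DAP and storage turned to 0.074, 0.064 and 0.088, and 36 against 33 DAP in WT to -0.0088 (TMM-type).

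A pseudocount of 0.1 lost 39 against 36 DAP of MELO3C005449.2 in *Cmnor* (0.16, limma adjusted p = 0.0596). A fit of only the libraries compared lost 36 against 33 DAP (0.28) and 39 against 36 DAP (0.15) in *Cmnor* and the *Cmnor* interaction between 33 and 36 DAP (0.23), and gained that between 33 DAP and storage (-0.20). For MELO3C024554.2 it lost *CmNOR/Cmnor* against WT at 39 DAP (0.22), 39 against 36 DAP in *Cmnor* (-0.22) and the *CmNOR/Cmnor* interaction between 33 and 36 DAP (0.35), and gained stored *CmNOR/Cmnor* against WT (0.10) and storage against 36 DAP in *Cmnor* (0.16) and *CmNOR/Cmnor* (0.055).

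Replicate numbers did not pair the libraries: deviations of same-numbered libraries correlated between -0.26 and 0.72, and every pair of a comparison was over 0.1 only in *Cmnor* against *CmNOR/Cmnor* at 33 DAP. With the replicate number as a block, MELO3C005449.2 gained storage against 36 DAP in WT (0.14, limma adjusted p = 0.0462) and the *Cmnor* interaction between 33 DAP and storage (-0.20, adjusted p = 0.0458), and no other call of either gene changed.

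Leaving out each library in turn, the values of MELO3C005449.2 that changed a call or sign ranged from -0.20 to -0.15 (*Cmnor* against WT at 39 DAP), 0.10 to 0.24 (39 against 36 DAP in *Cmnor*), -0.022 to 0.06 (the same in *CmNOR/Cmnor*) and 0.14 to 0.28 (*Cmnor* interaction between 33 and 36 DAP). Those of MELO3C024554.2 ranged from -0.26 to -0.21 and 0.17 to 0.29 (*CmNOR/Cmnor* against WT at 33 and 39 DAP), -0.30 to -0.16 (39 against 36 DAP in *Cmnor*), 0.14 to 0.19 (storage in *Cmnor*), -0.017 to 0.13 (36 against 33 DAP in WT) and -0.014 to 0.13 (storage in WT). Its interactions ranged from 0.21 to 0.35 (*Cmnor*) and 0.27 to 0.41 (*CmNOR/Cmnor*) between 33 and 36 DAP, and in *CmNOR/Cmnor* from 0.31 to 0.37 between 33 DAP and storage and -0.073 to 0.069 between 36 DAP and storage.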
